A study of Mus musculus with 2 samples.

Results

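Mitochondrial ribosomal protein genes were taken as the protein-coding genes of the GENCODE M21 annotation whose symbols begin with Mrpl or Mrps followed by a digit. This gave 78 of 21938 protein-coding genes: 49 Mrpl symbols, named for the large subunit, and 29 Mrps symbols, named for the small subunit. Their open chromatin was read in 1 group of 2 ATAC-seq libraries, a method in which a transposase inserts adapters into accessible DNA. The cells were primary megakaryocyte progenitors, the precursors of platelet-forming cells, taken from adult mice of the C57BL/6J strain, all male and 5 to 6 weeks old. Each library used 50000 cells, and the labels name no treatment or genetic change. Both libraries carry the same donor identifier, and nothing in the labels says that they came from separate animals, so the spread between replicates 1 and 2 may be technical. The replicate 1 label names 2 sequencing instruments, and the replicate 2 label names none. There was no second condition, so the members were set beside all protein-coding genes and no test was made.

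The mitochondrial ribosome translates the few proteins encoded by mitochondrial DNA, all of them subunits of the respiratory chain and ATP synthase. Its RNA is encoded in the mitochondrial genome, whereas its proteins are encoded by nuclear genes scattered over many chromosomes, translated in the cytosol and imported. Some of these proteins have bacterial counterparts and others are specific to mitochondria. Promoters of nuclear genes for mitochondrial proteins are known for sites of the factors NRF1, GABP (an ETS family factor), SP1 and YY1. The symbol does not always give the subunit: the proteins of Mrps18a and Mrps30 are known in the large subunit, and that of Mrps36 is known as a part of the 2-oxoglutarate dehydrogenase complex. The groups below follow the symbols.

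The members' start sites held short consensus words for such factors, and the sites shown here are those of YY1, ETS factors and NRF1, whose words were more frequent in members than in all genes and are long enough to be rare. A word was searched for on both strands from 250 bases before to 50 bases after the annotated start nearest to the strongest promoter summit, with overlapping words counted separately. Sequences are from the GRCm38.p6 (mm10) assembly, 5′ to 3′ along each gene, and capitals mark the word. The first set is the YY1 word AAGATGGC where it lay after the start and ran along the gene, which was the case in 7 members. Each site has 30 bases.
Mrps27, chr13:99344789-99344818, plus strand: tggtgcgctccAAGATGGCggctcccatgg
Mrps18a, chr17:46111004-46111033, plus strand: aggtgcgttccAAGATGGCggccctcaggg
Mrps10, chr17:47368893-47368922, plus strand: atcagggcaccAAGATGGCggcgcgcgcag
Mrps24, chr11:5707647-5707676, minus strand: cgcgccggcccAAGATGGCgtggtccgcgt
Mrps18b, chr17:35916348-35916377, minus strand: cggtgtgcgtcAAGATGGCtgcccccttgc
Mrpl37, chr4:107066822-107066851, minus strand: ctgcacgggcaAAGATGGCggcgtccaggt
Mrpl42, chr10:95501904-95501933, minus strand: cagattgaagcAAGATGGCgagcgcgcggt

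The word began between 14 bases (Mrps27) and 29 bases (Mrps18a) after the start base. In 5 of these 7 genes the ATG inside the word was an annotated start codon of the gene, so that the word overlapped the first codons of the protein. The exceptions were Mrpl37 and Mrpl42. Over all 13135 genes with a promoter region, 268 words lay in this place and orientation against 50 in the reverse orientation, and in 163 of the 268 (60.8%) the ATG was an annotated start codon. This orientation was looked at after the positions had been seen.

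The second set is the ETS word CCGGAAGT, or its reverse complement ACTTCCGG, in the 8 members with the strongest promoters among the 13 that held it.
Mrpl48, chr7:100583147-100583176, minus strand: gggttttaaaaACTTCCGGaaccaagatgc
Mrps27, chr13:99344726-99344755, plus strand: gtggtaggaccACTTCCGGcggaggcgggc
Mrps18c, chr5:100798591-100798620, plus strand: cgggtcacgtgACTTCCGGcccgggaagcg
Mrpl3, chr9:105053238-105053267, plus strand: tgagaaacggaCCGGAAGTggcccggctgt
Mrps22, chr9:98601672-98601701, minus strand: aacctctcgagCCGGAAGTtgctctatcga
Mrps35, chr6:147042725-147042754, plus strand: ccaggttacacACTTCCGGtcccgccccct
Mrps26, chr2:130563731-130563760, plus strand: gctccgcggccACTTCCGGgccgggcgcag
Mrpl27, chr11:94653725-94653754, plus strand: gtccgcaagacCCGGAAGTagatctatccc

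Of the 13 ETS words, 7 lay in the 100 bases before the start and 5 at or after the start. The one in Mrps18c, at position −135 from the start, lay farther upstream than the others.

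The third set is the NRF1 word CATGCGCA, or its reverse complement TGCGCATG, which occurred in 6 members. Mrpl32 held 2 such words, and the upstream one is shown.
Mrpl10, chr11:97041438-97041467, plus strand: ccagctccacgCATGCGCAtagcggcccta
Mrpl9, chr3:94443296-94443325, plus strand: agaggcgcagcTGCGCATGcgcggggtcct
Mrpl32, chr13:14613224-14613253, minus strand: acagccacgcaCATGCGCAgtaagtatgct
Mrpl17, chr7:105811081-105811110, minus strand: cgccgagttacTGCGCATGcgtcctctgag
Mrpl22, chr11:58171619-58171648, plus strand: cggcctcggacTGCGCATGcgtatagtcag
Mrps18b, chr17:35916393-35916422, minus strand: cgtgtcccgagCATGCGCAgtcgctcttcc

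Longer stretches are shown for 5 members that stood at an extreme. Mrps12 held 4 NFY words (CCAAT), the most of any member, in the 171 bases before its start, on the side of the divergent neighbour Sars2. Mrpl38 held 6 SP words (CCCGCCC or its reverse complement), some of them overlapping. Mrps11 has 29 bases between its start and that of another member, Mrpl46. Mrpl35 had the strongest promoter signal and none of the 12 words searched, and Mrps5 had the weakest signal and 2 SP words. Each stretch ends at the base before the start.
Mrps12, chr7:28741821-28741991, minus strand: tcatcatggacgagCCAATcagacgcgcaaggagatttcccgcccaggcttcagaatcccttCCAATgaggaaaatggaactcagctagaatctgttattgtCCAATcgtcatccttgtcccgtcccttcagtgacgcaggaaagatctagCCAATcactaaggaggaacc
Mrpl38, chr11:116138869-116138968, minus strand: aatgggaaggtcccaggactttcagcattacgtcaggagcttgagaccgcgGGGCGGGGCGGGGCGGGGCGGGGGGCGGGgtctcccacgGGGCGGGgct
Mrps11, chr7:78783090-78783118, plus strand: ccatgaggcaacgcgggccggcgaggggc
Mrpl35, chr6:71823811-71823910, minus strand: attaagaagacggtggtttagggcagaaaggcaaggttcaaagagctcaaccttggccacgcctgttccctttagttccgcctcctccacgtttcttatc
Mrps5, chr2:127587122-127587221, plus strand: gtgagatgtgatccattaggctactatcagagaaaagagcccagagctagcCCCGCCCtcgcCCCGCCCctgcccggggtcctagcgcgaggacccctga

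All 78 members had a promoter region in the conservative peak list, a list that the authors derived from both libraries together. A promoter region was a peak interval, with its summits merged, whose strongest summit lay within 1 kb of an annotated start of the gene. Over all protein-coding genes the share was 59.9%. In the list of replicate 1 alone 77 members had one, where 56.8% of all genes did, and in that of replicate 2 all 78 had one, against 56.1%. A promoter region in both replicates' lists was present in 77 members and in 54.8% of all genes. The gene not listed in replicate 1 was Mrpl53, which encodes a large-subunit protein.

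Promoters rich in CpG dinucleotides are open in most cell types, so the members were also set beside genes of like CpG content. The high CpG class, with an observed over expected CpG ratio of at least 0.6 in the 500 bases on each side of the gene's 5′ end, held 69 members (88.5%) and 46% of all genes. Within that class 87.8% of all genes and 69 of 69 members had a promoter region. In the low CpG class the shares were 36.1% of all genes and 9 of 9 members. These 9 were Mrpl35, Mrps18a, Mrpl46, Mrps24, Mrps9, Mrpl20, Mrpl1, Mrpl33 and Mrpl23. In 6 of the 9 the ratio reached 0.6 at the start nearest to the open region, which differs from the annotated 5′ end in such genes. For Mrpl35 the ratio was 0.0566 at the 5′ end and 0.55 at the start in use, 3159 bases away. Mrps24 likewise had its open region at an internal start, 7993 bases from the 5′ end.

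Promoter signal, the value that the authors' peak caller gave the strongest summit in units that the sources used here do not define, was higher in the members than in genes overall. The members' signals ran from 6.48 through a median of 13.7 to 22.0 (lower and upper quartiles 10.9 and 16.7). The median over all genes with a promoter region was 11.3, and that of such genes in the high CpG class was 11.5. The difference of medians from all genes was 2.47. In replicate 1 alone it was 2.16, from a member median of 12.7 and an all-gene median of 10.6. In replicate 2 it was 2.00, from 13.3 and 11.3. The difference had the same direction in both replicates, and the range of the members lay within that of all genes. For single members, the median SD over 2 replicates was 0.456.

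The members were spread unevenly over the ranking of all genes. Above the all-gene median lay 58 members (74.4%, against 50% of genes by construction). Above the border of the top 25% of genes lay 36 members (46.2%), and above that of the top 10% lay 19 members (24.4%). The bottom 25% of genes held 5 members (6.41%). The signal averages over all cells in a library, so a promoter open in fewer cells and one less open in each cell cannot be told apart.

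**Figure D1:**
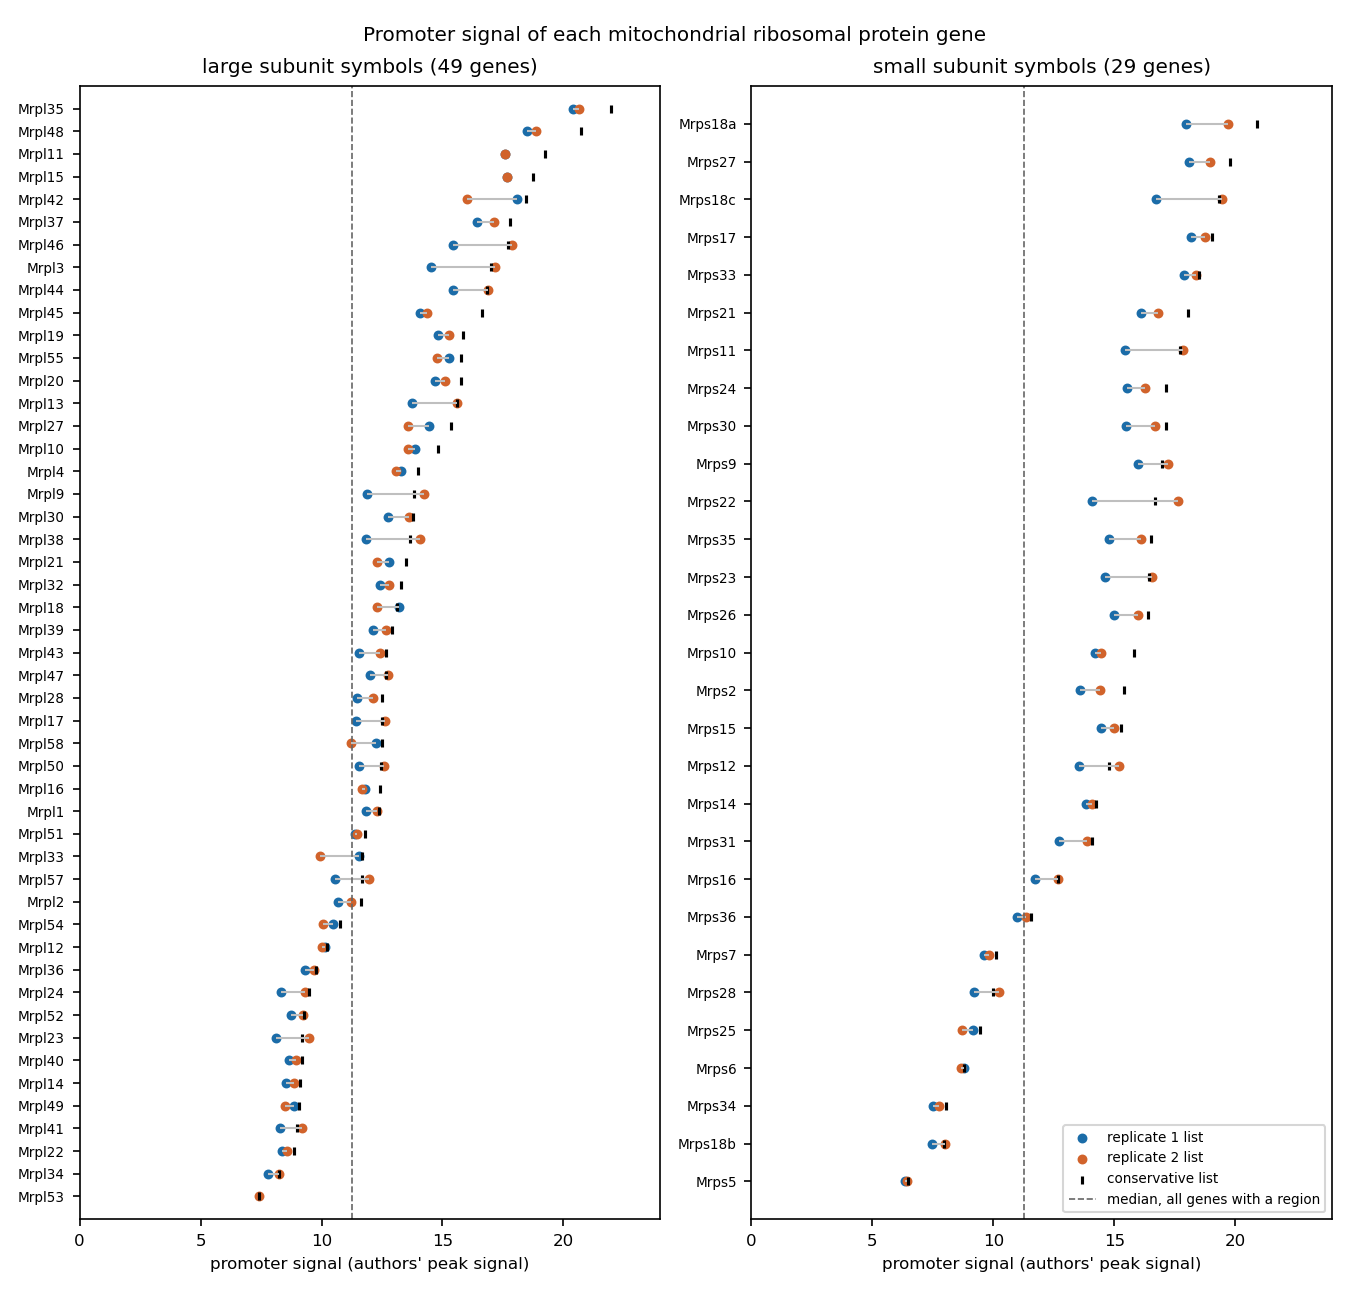
Promoter signal of each of the 78 members, with large-subunit symbols on the left and small-subunit symbols on the right, sorted by the conservative list. Blue and orange points are the lists of replicates 1 and 2, black ticks the conservative list of both libraries together, and the dashed line the all-gene median of 11.3. Mrpl35 stands at the top at 22.0 and Mrps5 at the bottom at 6.48, and Mrpl53 has no replicate 1 point.

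Small-subunit symbols had the higher median. It was 15.8 for the 29 small-subunit symbols (range 6.48 to 20.9) and 12.7 for the 49 large-subunit symbols (7.42 to 22.0). In replicate 1 the medians were 14.2 and 11.9, and in replicate 2 they were 15.2 and 12.6. The ranges overlapped over nearly their whole length. The top 10% of all genes held 10 small-subunit and 9 large-subunit symbols, and the bottom 25% held 3 and 2.

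Among the large-subunit genes, Mrpl35 had the strongest promoter region, at chr6:71823440-71823961. Its signal was 20.4 in replicate 1, 20.6 in replicate 2 (20.5 ± 0.168, SD, n = 2) and 22.0 in the conservative list, rank 61 of 13135 genes. It was high in both libraries, and it stood first among members in each. Mrpl48, which encodes a protein of the central protuberance, followed with 18.5 in replicate 1, 18.9 in replicate 2 and 20.7 in the conservative list, at chr7:100582687-100583270. Mrpl48 had 3 separate promoter regions, the most of any member.

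The next large-subunit genes were close to one another. Mrpl11, whose protein lies at the base of the ribosomal stalk, had 17.6 in both replicates and 19.2 in the conservative list (chr19:4961670-4962660). Mrpl15 had 17.6 and 17.7 in replicates 1 and 2 and 18.7 in the conservative list (chr1:4785231-4786342). Mrpl42 went the other way between libraries, with 18.08 in replicate 1, 15.99 in replicate 2 and 18.43 in the conservative list (chr10:95501429-95502136). The replicates of Mrpl42 overlapped those of Mrpl11 and Mrpl15, so their order is not separated by the spread.

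Among the small-subunit symbols, Mrps18a led, 1 of 3 mammalian counterparts of a single bacterial protein. Its signal was 17.95 in replicate 1, 19.72 in replicate 2 and 20.89 in the conservative list (chr17:46110683-46111312). The other two counterparts lay at opposite ends of the members. Mrps18c had 16.7 and 19.4 in replicates 1 and 2 and 19.3 in the conservative list (chr5:100798141-100799211). Mrps18b had 7.46 and 7.99 and 7.96 (chr17:35916060-35917187), below both replicates of the other two.

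Mrps27, which encodes a pentatricopeptide repeat protein, had 18.1 in replicate 1, 19.0 in replicate 2 and 19.8 in the conservative list (chr13:99343897-99345024). Mrps17, with a bacterial counterpart, had 18.2, 18.7 and 19.0 in the same order (chr5:129715243-129715944). Mrps33, specific to mitochondria, had 17.9, 18.4 and 18.5 (chr6:39810352-39811221). Replicates of these 3 genes overlapped. All 10 of the strongest members ranked among the first 549 of 13135 genes.

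The weakest promoter of all was that of Mrps5, whose protein has a counterpart in the small subunit of bacteria. It had 6.35 in replicate 1, 6.43 in replicate 2 and 6.48 in the conservative list, rank 11973 (chr2:127587011-127587735). Mrpl53 was next, with no region in the list of replicate 1, 7.40 in replicate 2 and 7.42 in the conservative list (chr6:83108639-83109854). A longer list of replicate 1, made by the authors from pseudoreplicates, did hold a region there with a signal of 6.82. A second region, 1270 bases from the start and so outside the promoter window, had a signal of 8.14 and was in both replicates' lists.

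Of the other weak members, Mrps34 had 7.51 and 7.75 in replicates 1 and 2 and 8.05 in the conservative list (chr17:24894548-24895551). Mrpl34, with a bacterial counterpart, had 7.77 and 8.25 and 8.26 (chr8:71464454-71465189). Mrps6 had 8.79 and 8.65 and 8.80 (chr16:92057794-92058607). These genes stood below the all-gene median in each library. Mrpl22, whose bacterial counterpart lines the exit tunnel, had 8.38 and 8.55 and 8.85 (chr11:58171434-58172011). Mrpl41 had 8.28 and 9.19 and 8.97 (chr2:24974722-24976362). Of the 8 weakest members, Mrps6, Mrpl22 and Mrpl41 lay above the border of the bottom 25% of all genes, which was 8.62.

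The 3 members whose products are known elsewhere than their symbol says took no common place. Mrps18a stood among the strongest, as above. Mrps30 had 15.5 in replicate 1, 16.7 in replicate 2 and 17.1 in the conservative list, inside the top 10% of all genes. Mrps36 had 11.0, 11.4 and 11.5 in the same order, close to the all-gene median.

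The replicates ranked the members alike, with a Spearman correlation of 0.959 over 77 members and 0.956 over all genes, given as a description because genes of 1 library share its depth. The signal was higher in replicate 2 for 62 of the 77 members and lower for 15, and 77.95% of 12023 genes were higher there as well. The median log2 ratio of replicate 2 over replicate 1 was 0.06 in members (range −0.22 to 0.33) and 0.09 in all genes. The SD of this ratio was 0.0991 in members and 0.133 in all genes, and 0 members passed 0.5 in either direction. No scaling between the libraries is stated, so the general shift cannot be told apart from a difference of scale.

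Mrps22, a mitochondria-specific small-subunit gene, differed most between replicates, with 14.1 in replicate 1 and 17.6 in replicate 2 (log2 ratio 0.33). Mrpl9 had 11.9 and 14.2 (0.26), and Mrpl38 had 11.8 and 14.1 (0.25). Mrpl3, which has a bacterial counterpart near the catalytic centre, had 14.5 and 17.2 (0.24). All 4 were higher in replicate 2.

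The promoter regions of members lay close over the start and were somewhat wide. Their median width was 971 bp (504 to 1641), against 874 bp over all genes, with a median of 3 summits per region against 2. The strongest summit lay a median of 41.5 bases from the nearest start, against 66 in all genes, and within 100 bases in 63 members (80.8%, against 64%). It was upstream of the start in 53 members and at or downstream of it in 25, where 74.3% of all genes had it upstream. In 42 members the summit fell in an annotated exon (53.8%, against 35.6% of all genes with a promoter region). Separate second promoter regions were present in 8 members, and in 22.4% of all genes. The GC content of the start window was 58% at the median in members and 60.7% in all genes. The CpG ratio, taken over 500 bases on each side of that start, had medians of 0.727 and 0.723.

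**Figure D2:**
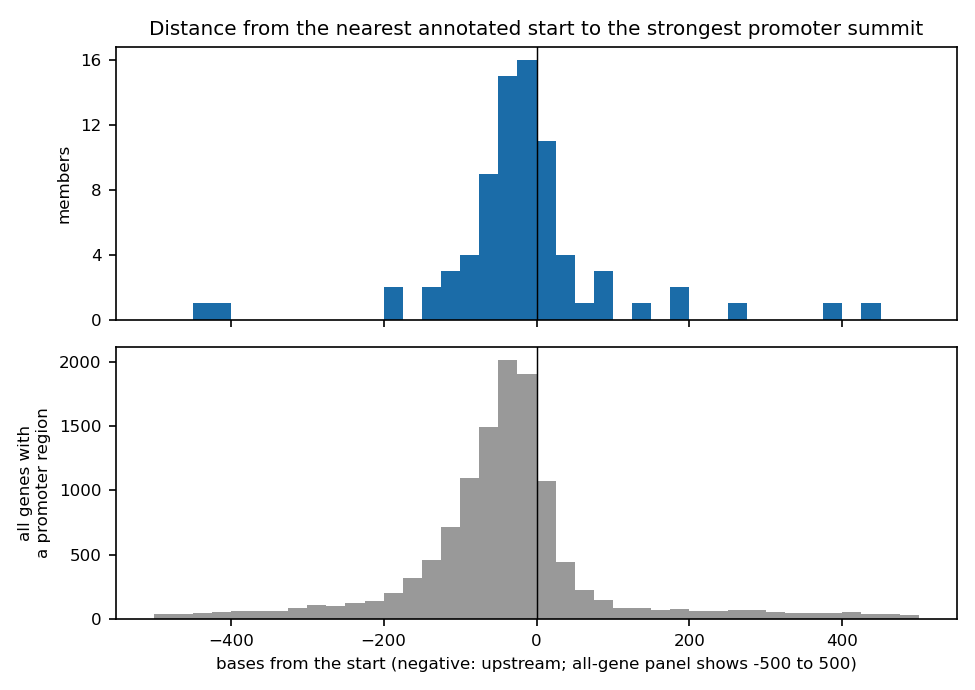
Distance in bases from the nearest annotated start to the strongest promoter summit, as counts of genes in bins along the x axis, for the members (top) and all genes with a promoter region (bottom, shown to 500 bases on each side). Both peak just upstream of the start, and the members have their median at −19.5 and all genes at −41.

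Many members had a gene transcribed away from them close upstream. A divergent neighbour, the start of another protein-coding gene on the opposite strand within 1 kb upstream, was present for 27 members (34.6%), against 15.9% of all genes with a promoter region. The starts lay a median of 71 bases apart, from 935 to an overlap of 29 bases, and 3 pairs overlapped. There were 19 large-subunit and 8 small-subunit symbols among the 27. In all 27 the neighbour's start lay inside the member's open region, so that its signal cannot be assigned to either gene. For 26 of them this was also the neighbour's strongest promoter region. The remaining neighbour, Zfp661, starts 128 bases from Mrps5 and had a stronger region, with a signal of 10.4, at another of its starts. Starts of protein-coding transcripts were counted, with an overlap of at most 100 bases. Mrpl13 and Mrpl27 were therefore counted as without a neighbour, although a transcript of the protein-coding genes Mtbp and Eme1 starts head to head with them.

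The strongest of these shared regions belonged to Mrps27, which lies 81 bases from Ptcd2, another pentatricopeptide repeat gene, with the signals given above. Mrps18c lies 29 bases from Helq, a DNA helicase gene. Mrpl37 lies 120 bases from Cyb5rl, with 16.4 in replicate 1, 17.1 in replicate 2 and 17.8 in the conservative list (chr4:107066378-107067623). Mrps12, whose bacterial counterpart helps in decoding, lies 182 bases from Sars2, the mitochondrial seryl-tRNA synthetase gene, with 13.5, 15.2 and 14.8 in the same order (chr7:28741394-28742422). Mrpl10, a stalk protein gene, lies 153 bases from Lrrc46, with 13.9, 13.6 and 14.8 (chr11:97041016-97041901).

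Mrps11 and Mrpl46 were the 1 pair of members within 50 kb of each other, and each is the other's divergent neighbour. Their starts in use lie 30 bases apart and their annotated 5′ ends 412 bases apart. They share 1 region at chr7:78782655-78783891, with 15.4 in replicate 1, 17.9 in replicate 2 and 17.7 in the conservative list. The 78 members therefore had 77 distinct promoter regions. They lay on 17 chromosomes, with the largest numbers on chromosomes 11 (11 members), 17 (8 members) and 6 (7 members).

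Members with a divergent neighbour had the weaker promoters. Their median signal was 12.5, against 15.4 in the 51 members without one. In replicate 1 the medians were 11.5 and 13.9, and in replicate 2 they were 12.3 and 14.4. The difference had the opposite direction among all genes, with medians of 11.9 with a neighbour and 11.1 without. Both groups of members spanned most of the range (6.48 to 19.8 with a neighbour, 7.42 to 22.0 without), and the difference between members and all genes was not tested. Regions with a neighbour were wider, at 1098 bp against 870 bp in members and 1043 bp against 841 bp in all genes.

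**Figure D3:**
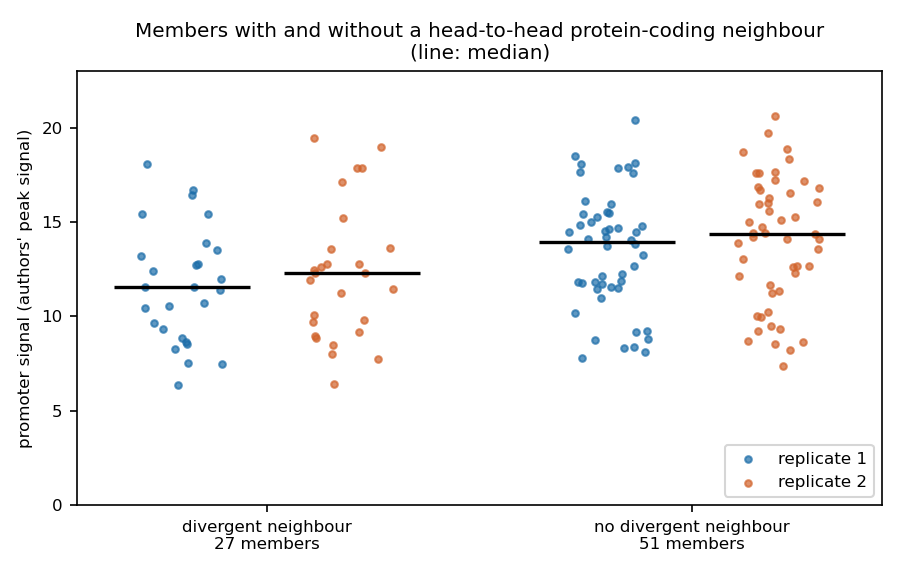
Promoter signal of members with a head-to-head protein-coding neighbour (27) and without one (51), in replicate 1 (blue) and replicate 2 (orange). Points are genes and black lines medians, which are 11.5 and 12.3 with a neighbour and 13.9 and 14.4 without, over widely overlapping points.

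The words shown above were set against all genes with a promoter region, using the same window. The YY1 word was in 11 members (14.1%) and in 4.58% of all genes. In the place and orientation printed above it was in 7 members (8.97%) and in 2.04%. In the other 4, Mrpl36, Mrps11, Mrpl32 and Mrps12, it lay before the start and against the gene. All 4 have a divergent neighbour, in the same order Ndufs6, Mrpl46, Psma2 and Sars2. In each the word lay downstream of the neighbour's start and ran along the neighbour, so it cannot be assigned to the member alone. The share of such words over all genes was not computed. Small-subunit symbols held it in 7 of 29 cases and large-subunit symbols in 4 of 49. Median signal was 17.1 in members with the word and 13.1 in those without, and the values over all genes were 12.8 and 11.2.

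The ETS word was in 13 members (16.7%) and in 8.18% of all genes, with 5 small-subunit and 8 large-subunit symbols. Members with it had a median signal of 16.4 and those without it 13.5, against 12.8 and 11.1 over all genes. The NRF1 word was in 6 members (7.69%, against 3.82%), of which 5 were large-subunit symbols. Here the median with the word, 12.9, was below that without it, 13.9, and over all genes the values were 11.6 and 11.2. Either word was in 19 members (24.4%, against 11.6%), and both together in 0 members (against 0.365% of genes). The remaining 59 members held neither of these words, and their median signal was 13.7.

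The commonest words were those of GC and CCAAT boxes, and these were not more frequent in members. The SP word was in 33 members (42.3%, against 47.4%) and the NFY word in 25 (32.1%, against 38.7%). The GATA word AGATAA, read by the blood factor GATA1, was in 10 members (12.8%, against 6.43%), and the RUNX word TGTGGT in 10 (12.8%, against 13.1%). The TATA word TATAAA was in 7 members (8.97%, against 6.62%), but 1 of its 8 occurrences lay in the 100 bases before the start. The E-box CACGTG was in 4 members (5.13%, against 10.1%), the CRE word TGACGTCA in 2 (2.56%, against 3.46%) and the BANP word TCTCGCGA in 1 (1.28%, against 2.19%). The ZNF143 word ACTACAAT was in 0 members (against 1.04%). A match is a description of letters in this window and not a bound site.

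**Figure D4:**
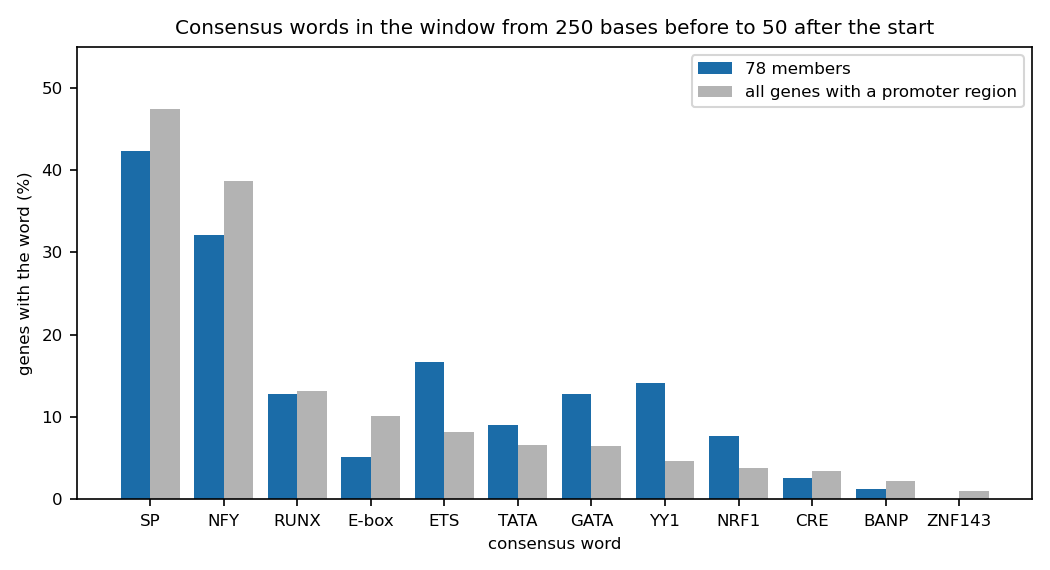
Share of genes with each of the 12 consensus words in the start window, in percent, for the 78 members (blue) and all genes with a promoter region (grey). The largest gaps above the all-gene share are those of YY1 (14.1% against 4.58%) and ETS (16.7% against 8.18%), and SP, NFY and the E-box lie below it.

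Distal regions, those more than 1 kb from any annotated protein-coding start and within 50 kb of the 5′ end, were somewhat more frequent around members than around all genes, and less frequent than around genes with an open promoter. At least 1 was present for 77 members (98.7%, against 82% of all genes). The mean number was 4.63 per member, against 4.20 over all genes and 5.19 over genes with a promoter region. In the lists of replicates 1 and 2 it was 3.38 in each, against 3.09 and 3.03 over all genes. Over genes with a promoter region it was 3.82 and 3.74 there. Members had more annotated starts of protein-coding transcripts within 50 kb, a median of 8.5 against 6. Alternative starts of a gene, the member's own included, were counted separately, so this is not a count of genes. The part of this density of starts in the distal counts was not tested.

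Mrpl14 had the most distal regions, 11 in the conservative list and 9 in each replicate's list. The strongest, at chr17:45718263-45718645, lay 32.2 kb downstream of the 5′ end with a signal of 16.98, whereas its promoter was weak at 9.10. Mrpl16 had 10 distal regions (9 in each replicate). Mrpl44, which encodes a protein related to ribonuclease III, also had 10 (6 and 4 in replicates 1 and 2). The strongest of them, at chr1:79786581-79786936 and 10.7 kb downstream, had a signal of 19.8, above the 16.8 of its promoter.

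Mrpl54 had 10 as well (6 and 5), Mrps28 had 9 (8 and 8), and Mrpl4 and Mrpl12 had 8 each (6 and 4, and 6 and 6). Mrps18a was among the 9 genes with 7. Mrps28 had its strongest distal region 15.9 kb upstream, at chr3:8939585-8940040, with a signal of 18.5 against 9.995 at its promoter. Mrpl3 alone had none. These regions lie near other genes too, and no data here assign one to a member.

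The 355 distal regions near members resembled distal regions in general in their median signal. It was 8.75, against 8.74 over all 65549. A region in both replicates' lists was overlapped by 214 of the 355 (60.3%), a share not computed over all distal regions. Within 75 bases on each side of the summit, the GATA word was in 32 of the 355 (9.01%, against 13.8%) and the RUNX word in 79 (22.3%, against 22.4%). The ETS word was in 0 (against 0.491%), and in the same window around the promoter summit 7 members (8.97%) and 6.62% of all genes held it.

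The partners of the ribosome in mitochondrial translation differed by group, with medians on both sides of the members' 13.7. The 5 ribosomal proteins with other symbols (Dap3, Ptcd3, Chchd1, Aurkaip1 and Gadd45gip1) all had a promoter region, with a median signal of 10.3. Of 25 genes for assembly and RNA modification of the ribosome, 24 had one, with a median of 13.0. Mterf4 (22.0) and Dhx30 (20.7) were strongest, and Mtg2 had none. The 16 genes of translation factors and related proteins, among them Lrpprc, Slirp, Oxa1l and Letm1, all had one, with a median of 14.8. They were led by Tsfm (21.4) and Gfm1 (19.6), both elongation factor genes. The 20 genes for mitochondrial aminoacyl-tRNA synthetases and their like had a median of 14.7, led by Tars2 (19.8) and Qrsl1 (18.2).

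The genes of 14 known regulators all had a promoter region, with a median of 11.3, the same as over all genes at this precision. Mtpap, the mitochondrial poly(A) polymerase gene, had 15.5 and Polrmt, the mitochondrial RNA polymerase gene, 15.4. Nrf1 had 13.0, Gabpa 11.6 and Yy1 8.05. Ppargc1a, a coactivator gene, had 5.64 and was in neither replicate's list.

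The members were also set beside both families most like them. Of 83 cytosolic ribosomal protein genes, 80 had a promoter region, with a median signal of 10.7 (10.2 in replicate 1 and 10.4 in replicate 2). The top 10% of all genes held 2 of them, against 19 members. Rpl31 (17.2) and Rps27l (16.8) were strongest, and Rpl10l, Rpl39l and Rpl3l had none. Of 94 nuclear respiratory chain genes, 87 had a promoter region, with a median of 13.6 (12.2 and 13.8), led by Ndufb3 (20.8) and Ndufa9 (19.6), and 11 were in the top 10%. Cox4i2, Cox7b2, Cox6a2 and Cox8b were among the respiratory chain genes without one. This list was taken by symbol, and it also held Ndufaf genes and a second entry of the symbol Atp5o. Among genes with a promoter region, a divergent neighbour was present for 14 of the cytosolic ribosomal genes (17.5%) and 33 of the respiratory chain genes (37.9%). The share of members, 34.6%, was thus close to that of the respiratory chain genes. The members' medians of 12.7 and 13.3 were above those of the cytosolic ribosomal genes in both replicates. Against the respiratory chain genes they were higher in replicate 1 and lower in replicate 2. The words were counted in these families too, in genes with a promoter region. YY1 words were in 8.75% of the cytosolic ribosomal and 11.5% of the respiratory chain genes, against 14.1% of members. ETS words were in 20% and 6.90%, against 16.7%, and NRF1 words in 6.25% and 8.05%, against 7.69%. Mitochondrial aminoacyl-tRNA synthetase genes held the YY1 word in 20%. These words were thus not particular to the members.

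**Figure D5:**
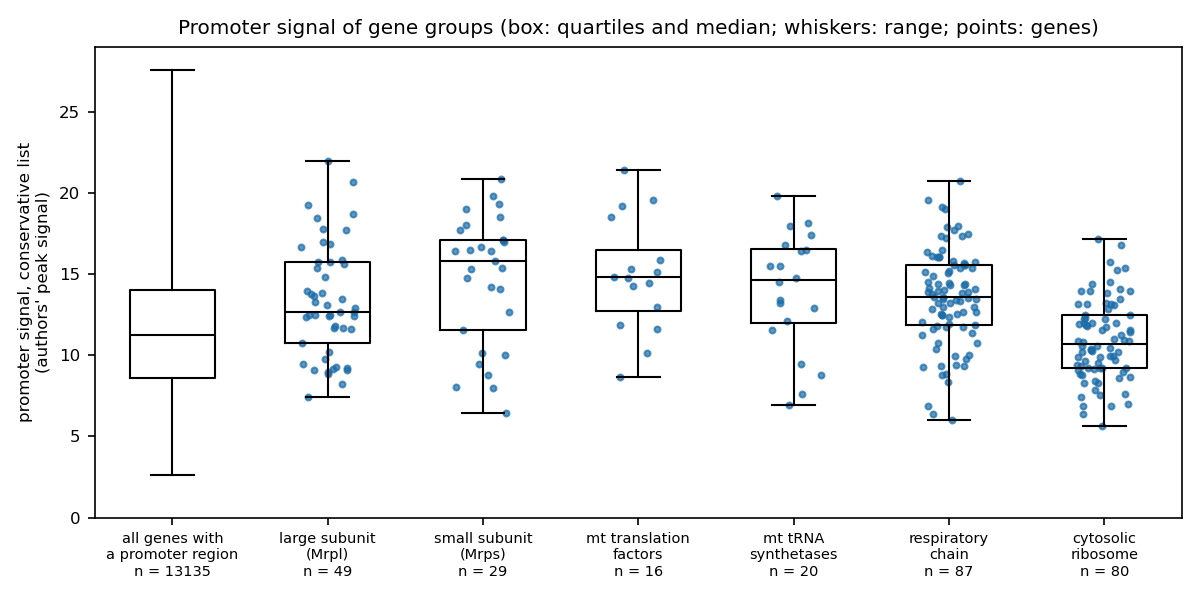
Promoter signal in the conservative list for all genes with a promoter region and for 6 groups of genes, with boxes for the quartiles and median, whiskers for the range and points for single genes. Medians are 11.3 for all genes, and 12.7 and 15.8 for large- and small-subunit symbols. They are 14.8 for translation factors and related genes, 14.7 for synthetases, 13.6 for the respiratory chain and 10.7 for the cytosolic ribosome.

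The label of the cells was checked on marker genes in the same way. Of 16 megakaryocyte markers, 9 had a promoter region (56.25%, below the share of all genes), with a median signal of 5.92 and a mean of 8.06 distal regions. Gp1ba (13.9) and Nfe2 (10.4) were strongest. Itga2b, Pf4 and Gata1 had 6.04, 5.96 and 5.89, and Vwf, Selp and Fli1 were among those with none by this rule. Of other blood cells' markers, 4 of 5 erythroid, 2 of 5 granulocyte and monocyte, 0 of 3 lymphoid and 1 of 3 mast cell genes had a promoter region. Their mean numbers of distal regions were 5.8, 9, 3.33 and 3.33 in the same order, against 4.20 over all genes. The mean of the granulocyte and monocyte markers was thus above that of the megakaryocyte markers. The erythroid markers had a median signal of 10.3, above that of the megakaryocyte markers, and the mast cell marker was Kit, with 9.75. The part of any such cells in the members' signals was not tested.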

How the data were processed

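ATAC-seq of 2 libraries of 1 group was used as the authors' peak lists (narrowPeak, mm10, per the file headers and descriptions). The deposited signal of each peak is the value given by the authors' peak caller, and the deposited −log10 p-value was used for no result. Aligner, peak caller and scaling were stated in no source used here, and the read depth is unknown, so no interval is given. The replicated, pseudoreplicated and IDR-thresholded lists (IDR scores reproducibility between replicates) came from both libraries together or from 1 library, per the deposited descriptions.

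Peaks sharing an interval were merged, and the strongest summit gave a region its position and signal. Starts were the 54361 of protein-coding transcripts in GENCODE M21. Distal regions lay over 1 kb from every start. In distal regions words were searched in 75 bases on each side of the summit. Python 3.11.15, numpy 2.4.6 and pandas 2.3.3 were used. Promoter calls, signals, summit distances, distal counts, divergent neighbours and word matching were tested on simulated data, and the other steps were not. The members and lists were chosen with earlier results of these data known. Genes were named by rule: the 10 highest and 8 lowest signals, the 8 with most distal regions and those with none, the 4 largest replicate ratios, the 6 strongest with a divergent neighbour, members absent from a replicate's list, member pairs within 50 kb, and in other lists the 2 strongest and up to 4 without a promoter region. Genes named for a word, for CpG class or as known exceptions to their symbol were chosen after their values were seen. Some regulator and marker genes were also named outside this rule. Members with both NRF1 and ETS words were to be named, and there were 0. Alternatives covered the peak list, windows, starts and single replicates.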

Additional observations from a re-analysis of the deposited data

How the results depend on the processing

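The number of members with a promoter region was 78 under most alternatives, where 56.1% to 67.9% of all genes had one. It was 71 among the stronger 50% of regions (43.5% of all genes) and 77 in replicate 1 alone (56.8%). With the gene's 5′ end as its single start it was 76 (56.0%), and Mrps24 and Mrpl35 had none. The members' median signal of 13.7 was 12.7 to 13.3 when 1 replicate was left out. Their difference from all genes, 2.47, was 3.16 in the replicated list, 3.12 in the pseudoreplicated list, 1.36 among the stronger 50% of regions and 2.00 to 2.16 when 1 replicate was left out. It kept its direction in each. The mean number of distal regions, 4.63 (4.20 over all genes), was 4.58 in the IDR-thresholded list of both libraries, 7.99 in the replicated list, 7.77 in the pseudoreplicated list, 2.29 among the stronger 50% and 3.38 when either replicate was left out. It was 1.69 within 20 kb and 9.49 within 100 kb, where all genes had 1.68 and 8.29. Within 75 bases of the summit, a shorter window, 7 members held an ETS word (13 in the start window), 8.97% against 6.62% of all genes, so that the excess over all genes was smaller there. The YY1 word was in 7 (11 in the start window), against 2.71% of all genes. The NRF1 word was in 4 (6 in the start window), against 2.18% of all genes. Within 150 bases of the summit the NRF1 word was also in 4 members, against 3.62% of all genes, so that its excess was smaller there. A divergent neighbour was present for 26 members within 0.5 kb (14.6% of all genes), 29 within 2 kb (17.3%) and 33 with any annotated gene counted (25.5%). Taking any summit of a region, an alternative chosen after seeing the data, gave 78 members and a difference of 2.47. The cause of these shifts was not tested. No paired analysis was possible because there is 1 group. With 2 libraries and unknown depth, small differences between single members cannot be resolved.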
